A study of Mus musculus with 6 samples.

Results

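The genes of 9 coinhibitory and related receptors of T cells were examined in splenic regulatory T cells (Tregs), CD4 cells that hold immune responses in check. They were chosen by name from the 55573 genes listed in the count files: Havcr2 (the receptor TIM-3), Lag3, Klrg1, Tigit, Cd96, Cd226, Cd160, Cd200r1 and Cd200. All 9 passed the count filter, as did 13347 genes in all. The set is wider than its common name, since Cd226 encodes a costimulatory receptor and Cd200 the ligand of the receptor encoded by Cd200r1. RNA sequencing compared 3 libraries of Tregs labelled Nfkb2-/- with 3 of wild-type Tregs, both sorted from the spleen of bone marrow chimeras labelled bi-parental, in which marrow from donors rebuilds the blood of a host. Nfkb2 encodes p100, an NF-kB precursor that holds back and, once processed to p52, carries the alternative NF-kB pathway. Sorted cells of both genotypes were over 90% pure and rested for 2 h in medium before lysis, per the labels. Host and donor strains, the ages and sexes of the mice, and the residual host cells are not given in the sources used here. The labels do not describe the knockout as Treg-specific.

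Coinhibitory receptors are surface proteins that dampen signalling by the T cell receptor or by costimulators when they meet their ligands. TIM-3, LAG-3 and TIGIT are carried by activated and effector Tregs more than by resting ones, and KLRG1, a lectin-like receptor of cadherins, marks terminally differentiated Tregs. TIGIT, CD96 and CD226 compete for the nectin-like ligand CD155 (gene Pvr), the first as an inhibitor and CD226 as an activator.

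The genotypes differed in more than Nfkb2. Totals were 12005273 to 14359439 counts per Nfkb2-/- library and 12499343 to 17278521 per wild-type library. Nfkb2 averaged 288 ± 31.3 CPM in Nfkb2-/- Tregs, against 553 ± 6.99 CPM in wild-type Tregs (SD, n = 3 per genotype), and fell (edgeR adjusted p = 0.0203). CPM are counts scaled to a common library total, adjusted by the trimmed mean of M-values (TMM). Xist, expressed from the inactive X chromosome of female cells, was at 592 to 883 CPM in Nfkb2-/- libraries, against 1.94 to 16.5 CPM in wild type. The sum of 4 Y-linked genes was 40.0 to 275 CPM in Nfkb2-/- libraries, against 465 to 498 CPM in wild type. Sex and genotype therefore cannot be told apart in any comparison below. In Nfkb2-/- replicates 1 to 3 Xist was at 841, 883 and 592 CPM and the Y-linked sum at 40, 138 and 275 CPM. Nfkb2-/- libraries thus held both kinds of RNA, in amounts that differed between replicates, and why was not tested. Wild-type replicate 1 stood apart, its log2 CPM correlating with the other libraries at 0.941 to 0.955 across genes, against 0.968 to 0.991 for all other pairs. Each result is therefore also given without that library where it matters.

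Promoter sequences are shown for Havcr2 and Tigit, the members with no overlap between genotypes that RefSeq's promoter table (build GRCm38.p6) holds; 5 of the 9 members matched that table. Each runs from 250 bases before to 50 bases after the annotated start, on the gene's own strand, and capitals mark matches to the motifs searched on both strands.
Havcr2, chr11:46454681-46454980, plus strand: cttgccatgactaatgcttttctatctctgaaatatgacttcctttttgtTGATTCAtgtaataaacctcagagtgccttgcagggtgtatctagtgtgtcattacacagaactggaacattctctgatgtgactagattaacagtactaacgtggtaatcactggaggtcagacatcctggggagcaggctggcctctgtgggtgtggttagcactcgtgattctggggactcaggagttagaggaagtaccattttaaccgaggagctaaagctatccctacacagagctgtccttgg
Tigit, chr16:43664135-43664434, minus strand: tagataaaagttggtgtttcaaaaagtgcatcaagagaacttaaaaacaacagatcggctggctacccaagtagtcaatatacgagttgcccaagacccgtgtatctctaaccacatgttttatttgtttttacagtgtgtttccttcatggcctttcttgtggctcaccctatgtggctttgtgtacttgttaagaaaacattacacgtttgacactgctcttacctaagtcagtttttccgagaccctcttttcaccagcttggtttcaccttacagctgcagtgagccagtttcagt
The Havcr2 window held 1 match, TGATTCA, to TGANTCA, an AP-1 motif searched with any base at its centre. A match to TGANTCA is held by 7.81% of all 32851 promoters of this length. Neither window held a match to the kB consensus of NF-kB, found in 4.51% of promoters, or to the T-box motif TCACACC, found in 3.98%. The 3 motifs were searched separately and no matches overlapped. These are descriptions of letters in a window and say nothing of binding.

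Klrg1 was the member that rose in Nfkb2-/- Tregs, and Havcr2 differed by nearly as much without passing the threshold. By edgeR's quasi-likelihood test with Benjamini-Hochberg adjustment over all genes, 1 of 9 members was called higher and 0 lower at an adjusted p under 0.05, against 1.01% and 0.405% of all genes tested. At an unadjusted p under 0.05 there were 3 higher and 1 lower, against 7.25% and 6.35% of all genes, or 13.6% in either direction. DESeq2, limma-voom and the fit with the replicate number as a block each called 2 higher, Klrg1 and Havcr2, and 0 lower. The shares of all genes called higher and lower were 2.33% and 1.37% by DESeq2, 1.14% and 0.33% by limma-voom, and 1.47% and 0.697% in the blocked fit. With no count filter 2 members were called higher, against 1.08% of all genes (0.642% lower). With the Y-linked level added as a covariate 0 were, against 0.045% (0.00749% lower), and with the B cell marker level 3 were (Klrg1, Havcr2 and Lag3), against 8.88% (11.2% lower). Y-linked sums were 40 to 275 CPM in Nfkb2-/- libraries, against 465 to 498 CPM in wild type. B cell marker sums were 35.7 to 66.1 CPM in Nfkb2-/-, against 97 to 335 CPM in wild type. Neither level overlapped between genotypes, so the covariate fits cannot separate genotype from them, and no conclusion is drawn from their calls. CPM did not overlap between genotypes for 4 members, Havcr2, Lag3, Klrg1 and Tigit, all higher in Nfkb2-/-, against 10.7% of all genes not overlapping and higher and 9.9% not overlapping and lower. The log2 fold change was positive for 7 members and negative for 2, with a median of 0.36 beside -0.03 for all genes tested. Leaving out wild-type replicate 1, edgeR called 2 members higher (Klrg1 and Havcr2) and 1 lower (Cd226), against 4.60% and 4.44% of all genes. Without Nfkb2-/- replicates 1, 2 or 3, 0 members were called, where 0.0872%, 0.0436% and 0.0797% of all genes were called higher and 0.0218%, 0.00727% and 0.00725% lower. Without wild-type replicates 2 or 3, 0 members were called as well, against 0.393% and 0.406% of all genes higher and 0.0655% and 0.0725% lower. Counts from bulk cells cannot tell a larger share of cells that carry a receptor from more RNA per cell.

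**Figure D1:**
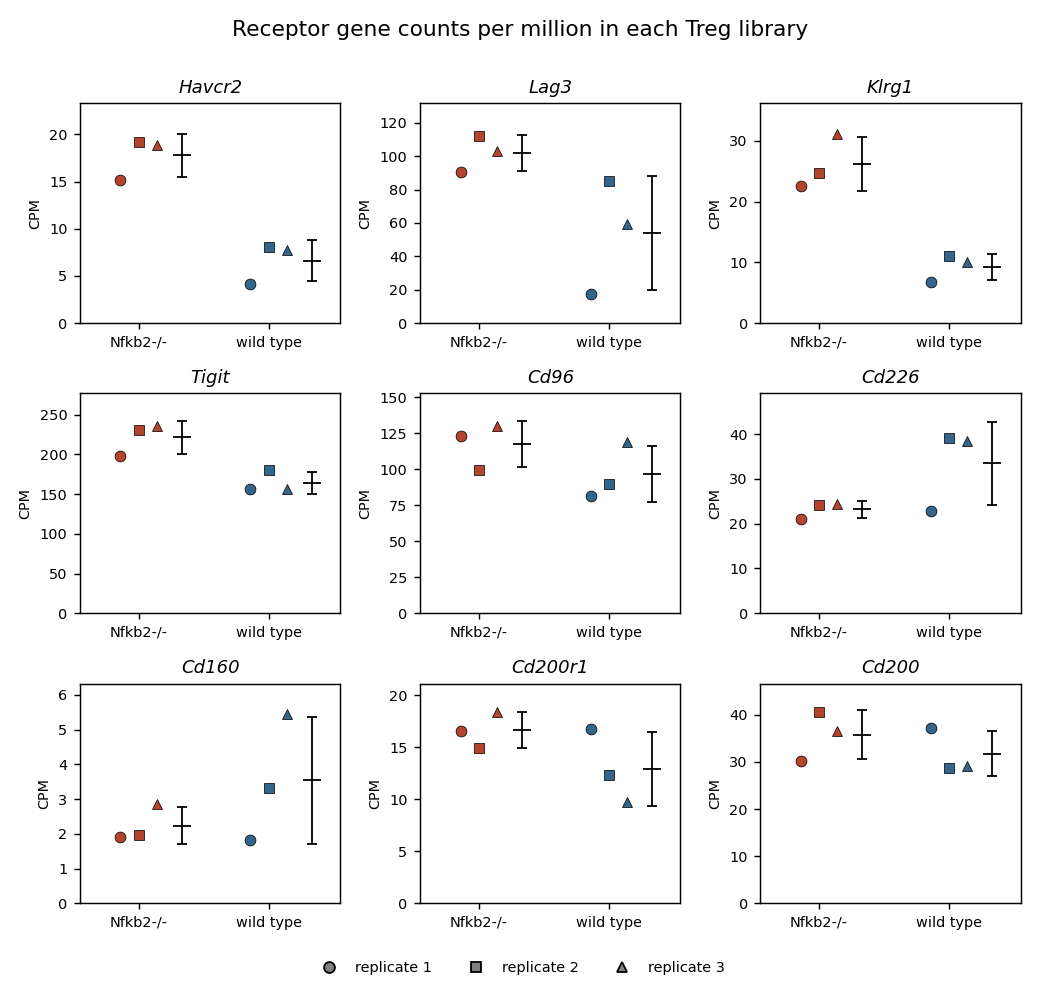
CPM of the 9 receptor genes in each library, on linear axes from 0, with Nfkb2-/- libraries (red) left of wild type (blue). Marker shape gives the replicate number and the bar the mean ± SD (n = 3). In Havcr2, Lag3, Klrg1 and Tigit every Nfkb2-/- point lies above every wild-type point.

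Klrg1 (ENSMUSG00000030114, chromosome 6, 122270596 to 122282882 on GRCm38) encodes an inhibitory lectin-like receptor that binds E- and N-cadherin. It was at 22.6, 24.8 and 31.1 CPM in Nfkb2-/- replicates 1 to 3, against 6.85, 11.0 and 10.0 CPM in wild-type replicates 1 to 3. The lowest Nfkb2-/- library was thus above the highest wild-type library, on 1007 counts in all Nfkb2-/- libraries together, against 385 in wild type. The log2 fold change was 1.50 (SE 0.228, 95% interval 0.97 to 2.03, edgeR adjusted p = 0.0254), a 2.83-fold difference. The call was lost when any Nfkb2-/- library was left out, at edgeR adjusted p of 0.105 without replicate 1, 0.144 without replicate 2 and 0.162 without replicate 3. It was also lost without wild-type replicate 2 (0.0621) or 3 (0.0724). Without wild-type replicate 1 it was 0.000523 at a log2 fold change of 1.31, and in the Y-linked covariate fit 0.281 at 1.82. Over all 15 alternatives the log2 fold change ran from 1.31 to 2.35 and the adjusted p from 2.31e-06 to 0.281.

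Havcr2 (ENSMUSG00000020399, chromosome 11, 46454935 to 46481255) encodes TIM-3, an immunoglobulin-domain receptor whose reported ligands include galectin-9 and CEACAM1. It was at 15.2, 19.2 and 18.9 CPM in Nfkb2-/- replicates 1 to 3, against 4.10, 8.07 and 7.73 CPM in wild-type replicates 1 to 3. Every Nfkb2-/- library was well above the highest wild-type library. The log2 fold change was 1.43 (SE 0.279, 95% interval 0.79 to 2.08, edgeR adjusted p = 0.0561). The call was made in the blocked fit (edgeR adjusted p = 0.0312), by DESeq2 (0.000265), by limma-voom (0.0463), with no count filter (0.00117), with the B cell covariate (0.00311, log2 fold change 2.53) and without wild-type replicate 1 (0.00123, log2 fold change 1.17). No call was made without Nfkb2-/- replicates 1, 2 or 3 (edgeR adjusted p = 0.154, 0.284 and 0.27). The same held without wild-type replicates 2 or 3 (edgeR adjusted p = 0.108 and 0.12). The highest adjusted p over the alternatives was 0.488, with the Y-linked covariate.

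Lag3 (ENSMUSG00000030124, chromosome 6, 124904361 to 124911705) encodes a CD4-related receptor that binds MHC class II. It was at 90.2, 112 and 103 CPM in Nfkb2-/- replicates 1 to 3, against 17.7, 84.9 and 59.2 CPM in wild-type replicates 1 to 3. The groups did not overlap, but the highest wild-type library was close to the lowest Nfkb2-/- library, and the libraries spanned a 1.25-fold range in Nfkb2-/-, against 4.80-fold in wild type. Its log2 fold change of 0.92 had a 95% interval of -0.15 to 2.00 and did not pass (SE 0.465, edgeR adjusted p = 0.451). Without wild-type replicate 1 it was 0.50 (edgeR adjusted p = 0.0687), and with the B cell covariate it was 3.35 and called (0.00364). Over the 15 alternatives the adjusted p ran up to 0.835.

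Among the receptors that share nectin-like ligands, Tigit was the most abundant, and Cd226 alone had a negative log2 fold change. Tigit (ENSMUSG00000071552, chromosome 16, 43648867 to 43664146) encodes the inhibitory receptor TIGIT, which also binds CD112 (gene Nectin2). It was at 198, 231 and 236 CPM in Nfkb2-/- replicates 1 to 3, against 156, 180 and 156 CPM in wild-type replicates 1 to 3. The groups did not overlap, and the spread within each was small (coefficients of variation of 9.34% in Nfkb2-/- and 8.43% in wild type). The log2 fold change of 0.43 (SE 0.128, 95% interval 0.14 to 0.73) did not pass over all genes (edgeR adjusted p = 0.173). Tigit passed in 0 of the 15 alternatives, with adjusted p from 0.0518 to 0.617.

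Cd96 (ENSMUSG00000022657, chromosome 16, 46035657 to 46120251), whose product binds the same ligand, was at 123, 99.7 and 130 CPM in Nfkb2-/- replicates 1 to 3, against 81.7, 89.6 and 119 CPM in wild-type replicates 1 to 3. Wild-type replicate 3 lay within the Nfkb2-/- range, and the log2 fold change of 0.28 did not pass (95% interval -0.13 to 0.69, edgeR adjusted p = 0.569). Cd226 (ENSMUSG00000034028, chromosome 18, 89176967 to 89272229), the activating receptor of the trio, was at 21.0, 24.1 and 24.4 CPM in Nfkb2-/- replicates 1 to 3. In wild-type replicates 1 to 3 it was at 22.8, 39.2 and 38.4 CPM. Wild-type replicate 1 thus sat among the Nfkb2-/- libraries and the other two wild-type libraries well above them. For Cd226 the log2 fold change was -0.53 (SE 0.223, 95% interval -1.04 to -0.01, edgeR adjusted p = 0.360), and without wild-type replicate 1 it was -0.74 with an edgeR adjusted p of 0.00272 (up to 0.88 over the alternatives). With the B cell covariate it turned to 0.37 (adjusted p = 0.342).

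**Figure D2:**
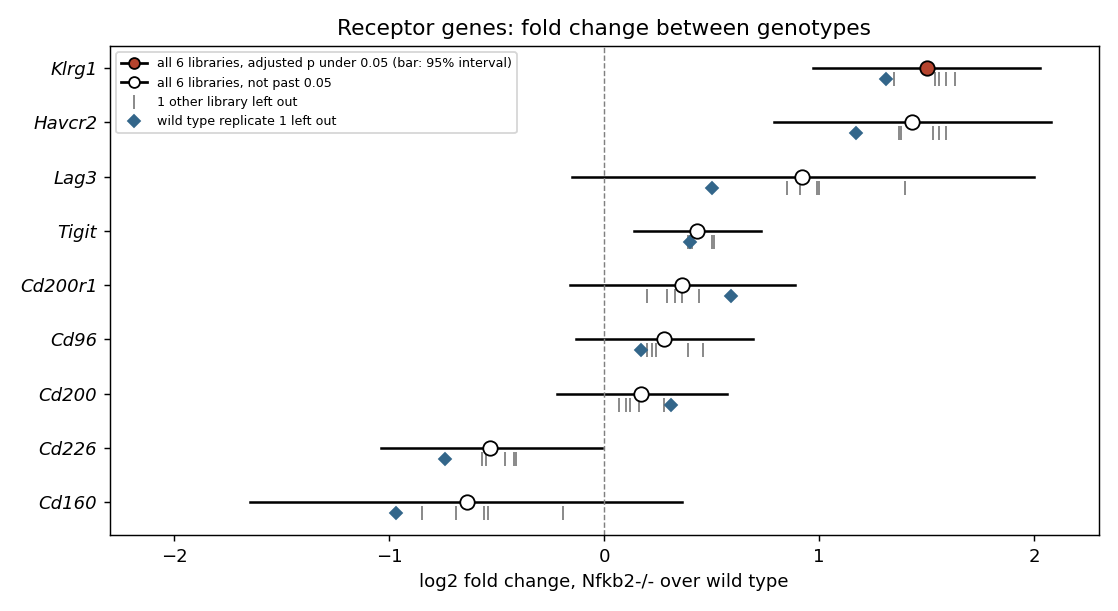
Log2 fold change of each receptor gene, Nfkb2-/- over wild type, with its 95% interval (circles and bars; filled where the adjusted p is under 0.05). Grey ticks give the value with 1 other library left out and blue diamonds that without wild type replicate 1. Klrg1 is the filled circle, and the diamond moves Lag3 from 0.92 to 0.50 and Cd226 from -0.53 to -0.74.

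Ratios within a library, in which scaling to library size cancels, set these receptors against each other. Tigit counts were 9.39, 9.57 and 9.65 times those of Cd226 in Nfkb2-/- replicates 1 to 3, against 6.85, 4.59 and 4.05 times in wild-type replicates 1 to 3. The Nfkb2-/- libraries were nearly identical and all above wild type. The mean log2 ratio was 3.25 ± 0.02 in Nfkb2-/- and 2.33 ± 0.40 in wild type (SD, n = 3 each), a difference of 0.92. The 4 ratios were compared by an exact two-sided permutation test, which with 3 against 3 cannot go below p = 0.1. Tigit to Cd226 had that p (0.2 adjusted over the 4 ratios), and so had Cd96 to Cd226, with a difference of 0.78 and no overlap. Tigit to Cd96 differed by 0.14 and overlapped between genotypes (exact permutation p = 0.7, adjusted p = 0.7). Without wild-type replicate 1 the Tigit to Cd226 difference was 1.14, and without wild-type replicate 3 it was 0.77.

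**Figure D3:**
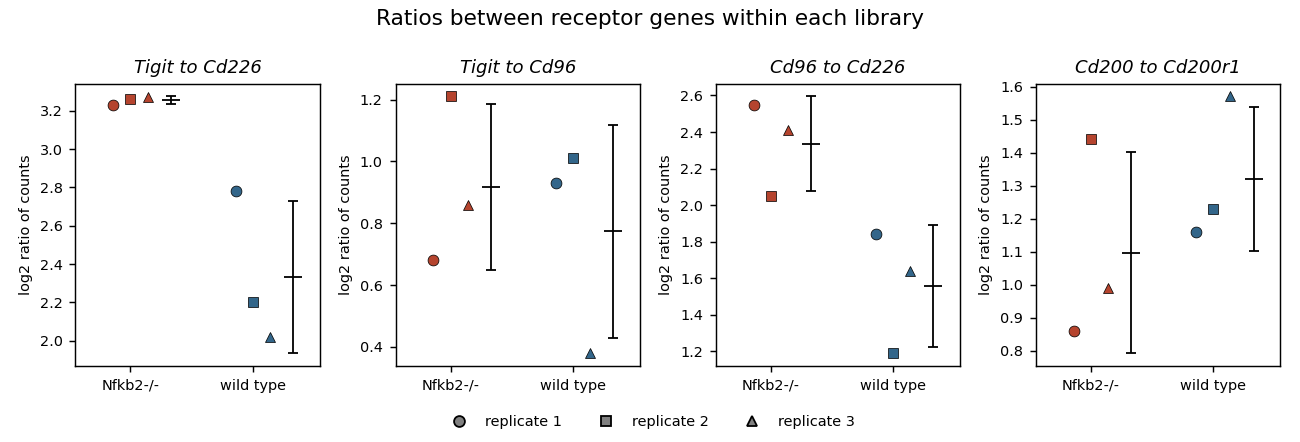
Log2 ratio of counts between pairs of receptor genes within each library, Nfkb2-/- (red) left of wild type (blue), with the mean ± SD (n = 3) and replicates by marker shape. Vertical axes differ between panels and do not start at 0. Tigit to Cd226 lies at 3.23 to 3.27 in Nfkb2-/- and at 2.02 to 2.78 in wild type.

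Cd160 was near the lower limit of what these libraries resolve. It encodes a glycolipid-anchored receptor of HVEM (gene Tnfrsf14) best known from NK and CD8 T cells. The gene had 86 counts in all Nfkb2-/- libraries together, against 141 in wild type. It was at 1.90, 1.97 and 2.85 CPM in Nfkb2-/- replicates 1 to 3, against 1.83, 3.32 and 5.46 CPM in wild-type replicates 1 to 3. The groups overlapped, and the log2 fold change of -0.64 had a 95% interval of -1.65 to 0.36 (edgeR adjusted p = 0.598). It was -0.97 without wild-type replicate 1 (adjusted p = 0.0858), -0.19 without wild-type replicate 3 (0.851) and 0.68 with the B cell covariate (0.494), and the highest adjusted p over the alternatives was 0.958. Cd160 (ENSMUSG00000038304, chromosome 3, 96798763 to 96829351) shares 68 exonic bases with Pdzk1 on the other strand, which unstranded counts cannot separate, and Pdzk1 itself had 0 to 2 counts per library.

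The CD200 pair showed no difference beyond its spread. Cd200r1 (ENSMUSG00000022667, chromosome 16, 44765736 to 44794978), the inhibitory receptor, was at 16.6, 14.9 and 18.4 CPM in Nfkb2-/- replicates 1 to 3, against 16.7, 12.3 and 9.74 CPM in wild-type replicates 1 to 3. Its log2 fold change was 0.36 (95% interval -0.16 to 0.89, edgeR adjusted p = 0.561), or 0.59 without wild-type replicate 1 (adjusted p = 0.0528, and up to 0.97 over the alternatives). Counts of Cd200r1 are uncertain where it resembles its neighbour Cd200r4. Cd200 (ENSMUSG00000022661, chromosome 16, 45382135 to 45409053), the ligand, was at 30.2, 40.5 and 36.5 CPM in Nfkb2-/- replicates 1 to 3, against 37.2, 28.8 and 29.1 CPM in wild-type replicates 1 to 3. Its groups overlapped as well, with a log2 fold change of 0.17 (95% interval -0.22 to 0.57, edgeR adjusted p = 0.740). The Cd200 to Cd200r1 log2 ratio was 1.09 ± 0.31 in Nfkb2-/- and 1.32 ± 0.22 in wild type (SD, n = 3 each, exact permutation p = 0.4, adjusted p = 0.533).

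Wild-type replicate 1 carried the lowest level of all 6 libraries for Havcr2, Lag3, Klrg1, Cd96 and Cd160. Among the wild-type libraries it was also the lowest for Cd226, yet the highest for Cd200r1 and Cd200. Wild-type coefficients of variation reached 62.9% for Lag3 and 51.5% for Cd160, while in Nfkb2-/- the widest was 23.6%, for Cd160. The 9 genes summed to 519, 568 and 601 CPM in Nfkb2-/- replicates 1 to 3, against 345, 457 and 435 CPM in wild-type replicates 1 to 3, most of it Tigit, Cd96 and Lag3.

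Scaled to exon length, Tigit was far above the other receptor genes in both genotypes. TPM, the length-scaled share of transcripts, averaged 822 ± 61.1 for Tigit in Nfkb2-/- and 603 ± 88.0 in wild type (SD, n = 3 each), or 61.8% of the summed TPM of the 9 genes in Nfkb2-/- and 64.3% in wild type. In Nfkb2-/- Tregs the order was then Cd96 (184 TPM), Lag3 (165), Klrg1 (63.0), Cd200 (36.7), Havcr2 (22.3), Cd200r1 (17.0), Cd226 (16.2) and Cd160 (2.89). Neighbours whose libraries overlapped in that order were Cd96 with Lag3, and Cd200r1 with Cd226. In wild type it was Cd96 (147 TPM), Lag3 (84.0), Cd200 (32.5), Cd226 (22.7), Klrg1 (21.9), Cd200r1 (13.3), Havcr2 (8.07) and Cd160 (4.34). From Lag3 downwards each neighbouring pair overlapped in wild type. Klrg1 ranked 4 in Nfkb2-/- and 6 in wild type, and Cd226 ranked 8 in Nfkb2-/- and 5 in wild type. The annotated exons of Tigit span 919 bases, the shortest of the set, which raises its TPM relative to its CPM.

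**Figure D4:**
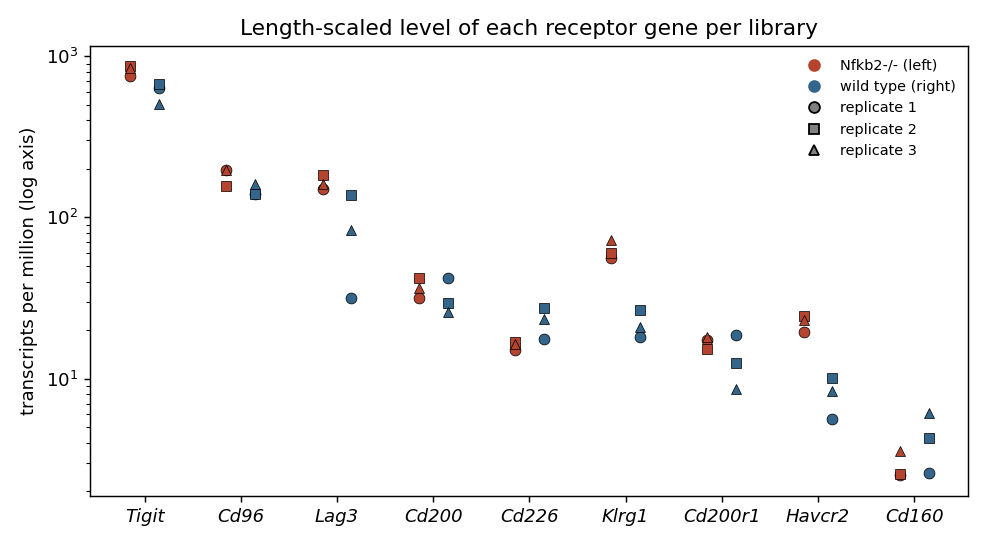
TPM of each receptor gene per library on a log axis, ordered by the wild-type mean, with Nfkb2-/- (red) left of wild type (blue) and replicates by marker shape. Tigit lies at 752 to 864 TPM in Nfkb2-/- and 503 to 668 TPM in wild type, and Cd160 at 2.52 to 3.57 TPM in Nfkb2-/- and 2.61 to 6.13 TPM in wild type.

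Expression of the receptors' ligands and signalling partners was examined next. Of 14 ligands and counter-receptors 9 were tested, and 0 were called higher or lower (edgeR; 1 higher and 1 lower at an unadjusted p under 0.05, where 13.6% of all genes lay, and 0 by DESeq2 and limma-voom). Their median log2 fold change was 0.11. Pvr, the shared ligand, was itself well expressed by the sorted cells, at 97.9 ± 2.82 CPM in Nfkb2-/- Tregs, against 108 ± 29.2 CPM in wild-type Tregs (SD, n = 3 per genotype). Lgals9, the gene of galectin-9, averaged 63.8 ± 6.29 CPM in Nfkb2-/- Tregs, against 62.6 ± 20.7 CPM in wild-type Tregs, and both genes are named after their values were seen. Nectin3, a nectin, had a log2 fold change of 1.74 on a mean of 1.10 CPM in Nfkb2-/-, against 0.315 CPM in wild type (edgeR adjusted p = 0.105). Hmgb1, an alarmin and reported TIM-3 ligand, had -0.42 (edgeR adjusted p = 0.161). Without wild-type replicate 1 Hmgb1 was called lower, at -0.48 (edgeR adjusted p = 0.016), where 4.44% of all genes were called lower. Fgl1, a LAG-3 ligand made by liver, had 0 counts in every library.

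Of 12 intracellular partners of these receptors 12 were tested and 0 were called (edgeR; 0 higher and 1 lower at an unadjusted p under 0.05, beside 13.6% of all genes, and 0 by DESeq2 and limma-voom). Their log2 fold changes lay between -0.32 and 0.27 with a median of -0.12. Rasa1 and Dok2, which act below CD200R1, had -0.29 and -0.32. The sheddases Adam10 and Adam17, which cut LAG-3 from the surface, had -0.31 and 0.26 (edgeR adjusted p = 0.502 and 0.341), with 0 called by edgeR, DESeq2 or limma-voom and Adam17 at an unadjusted p under 0.05.

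Among 13 genes known to regulate coinhibitory receptor genes, 1 rose and 0 fell, against 1.01% and 0.405% of all genes. At an unadjusted edgeR p under 0.05 there were 5 higher and 1 lower, against 7.25% and 6.35% of all genes. The log2 fold change was above 0 for 10 of the 13 genes, with a median of 0.48 beside -0.03 for all genes. The gene that rose was Eomes, a T-box factor of effector and memory T cells. It averaged 19.3 ± 3.73 CPM in Nfkb2-/- Tregs, against 6.39 ± 1.85 CPM in wild-type Tregs (SD, n = 3 per genotype), which is 1.60 on the log2 scale (SE 0.274, edgeR adjusted p = 0.0364). The list had 6 members with no overlap and higher in Nfkb2-/- and 1 lower, against 10.7% and 9.9% of all genes. DESeq2 called 4 higher and 1 lower, against 2.33% and 1.37% of all genes. Leaving out wild-type replicate 1 gave 4 higher and 2 lower by edgeR, against 4.6% and 4.44%. The blocked fit called 1 higher and 1 lower, against 1.47% and 0.697%. The gene it called lower was Irf4, a factor of effector Tregs, named after its value was seen. Irf4 averaged 160 ± 42.9 CPM in Nfkb2-/- Tregs, against 301 ± 33.3 CPM in wild-type Tregs (SD, n = 3 per genotype; edgeR adjusted p = 0.0988, or 0.0400 in the blocked fit). Irf4 was also called lower by DESeq2 (adjusted p = 0.00634), with no count filter (edgeR 0.0044) and without wild-type replicate 1 (edgeR 0.0154). The list had 0 lower by limma-voom, under the other scalings, with the 1 CPM filter and with the Y-linked covariate. It also had 0 lower when any other library was left out. Eomes lost the call without each Nfkb2-/- library, without wild-type replicates 2 or 3 and with the Y-linked covariate, where 0 of the 13 genes rose.

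Other coinhibitory receptors gave 0 called of 12 tested (edgeR; 2 higher and 4 lower at an unadjusted p under 0.05, beside 13.6% of all genes, and 0 by DESeq2 and limma-voom), with a median of -0.20. Pdcd1, which encodes PD-1, averaged 339 ± 9.30 CPM in Nfkb2-/- Tregs, against 244 ± 38.7 CPM in wild-type Tregs, which is 0.47 on the log2 scale (SD, n = 3 per genotype; edgeR adjusted p = 0.187). Vsir, which encodes VISTA, averaged 286 ± 22.0 CPM in Nfkb2-/- Tregs, against 396 ± 37.9 CPM in wild-type Tregs (log2 fold change -0.47, edgeR adjusted p = 0.163). The list also holds Entpd1, the gene of an enzyme. Without wild-type replicate 1, the edgeR test called 1 gene of the list higher, Pdcd1. It called 4 lower, Vsir and, named after their values were seen, Lair1, Klrc1 and Entpd1. In that fit 4.6% of all genes were called higher and 4.44% lower. Of 10 paralogs of the receptor genes only Cd4, Cd200r4 and Crtam were tested, and 0 were called by edgeR, DESeq2 or limma-voom, or at an unadjusted p under 0.05 (Cd4 0.28, Cd200r4 -0.23).

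**Figure D5:**
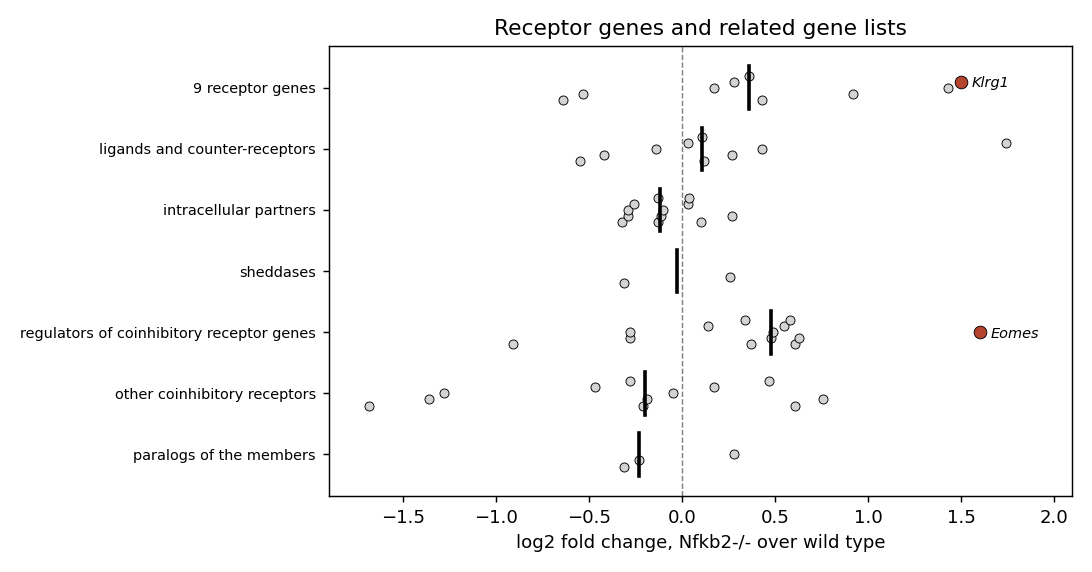
Log2 fold change, Nfkb2-/- over wild type, of the tested members of each gene list, with 1 point per gene, the list median as a black bar and called genes in red with their names. Klrg1 and Eomes are the called genes, and the medians run from -0.23 for the paralogs to 0.48 for the regulators.

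The receptor genes Tigit, Cd200r1, Cd200 and Cd96 lie within 2.47 Mb of chromosome 16. Of 56 listed genes in that stretch 23 were tested, these 4 genes included, and 0 were called by edgeR (3 higher and 3 lower at an unadjusted p under 0.05, beside 13.6% of all genes). DESeq2 called 1 higher, Zdhhc23, a palmitoyltransferase gene, where it called 2.33% of all genes higher. The blocked fit called 1 lower, Spice1, where it called 0.697% of all genes lower, and limma-voom called 0. The median log2 fold change of the stretch was 0.01.

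The genes with the library pattern most like each leading receptor were found by the root mean square difference of log2 CPM, centred on each gene, over the 6 libraries and 9148 other genes. Fam110a and Rell1 were among the nearest 3 for both Klrg1 (0.104 and 0.121) and Havcr2 (0.127 and 0.127), where the median gene was at 0.816 and 0.824. Both were chosen for a pattern that separates the genotypes, so their difference follows from the choice. Fam110a averaged 102 ± 8.89 CPM in Nfkb2-/- Tregs, against 40.9 ± 10.3 CPM in wild-type Tregs. Rell1 averaged 60.5 ± 6.47 CPM in Nfkb2-/- Tregs, against 21.0 ± 4.99 CPM in wild-type Tregs (SD, n = 3 per genotype). The other nearest genes were Dgat2, of triacylglycerol synthesis, for Klrg1 and Eml6, of the EMAP-like microtubule proteins, for Havcr2. For Tigit they were Nlrx1, Plekha3 and Cep85l (0.0284 to 0.0456), and for Lag3 Sema4c, Cntln and S100a6 (0.124 to 0.189), whose levels were likewise lowest in wild-type replicate 1.

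Several of these receptors are also made by other spleen cells, so markers of those cells were measured beside them. The 7 Treg markers summed to 4040 to 4480 CPM in Nfkb2-/- libraries, against 3240 to 4910 CPM in wild type, and edgeR called 0 of them. Foxp3 was at 525 ± 67.4 CPM in Nfkb2-/- Tregs, against 505 ± 109 CPM in wild-type Tregs (SD, n = 3 per genotype, edgeR adjusted p = 0.935). Of the 7, Ikzf2 was higher without overlap between genotypes (log2 fold change 0.65, edgeR adjusted p = 0.0875). Il2ra was lower without overlap (-0.38, edgeR adjusted p = 0.305), and the rest overlapped. Of all genes 10.7% were higher and 9.9% lower without overlap. Ikzf2 and Il2ra are named after their values were seen. For Klrg1, Lag3 and Cd160, which NK cells carry, the 8 NK markers summed to 7.04 to 10.3 CPM in Nfkb2-/-, against 5.34 to 17.6 CPM in wild type. Of them 5 averaged under 1 CPM, among them the defining Ncr1, at most 0.489 CPM in Nfkb2-/-, against 0.162 CPM in wild type. Klra8 was at 0 in every Nfkb2-/- library, and Klra4 had 1 to 3 counts per Nfkb2-/- library, against 0 in every wild-type library. Cd8a and Cd8b1 together were at 10.4 to 13.7 CPM in Nfkb2-/-, against 13.3 to 22.7 CPM in wild type. For Havcr2, which macrophages and dendritic cells carry, the 7 macrophage and monocyte markers summed to 13.0 to 26.8 CPM in Nfkb2-/-, against 13.1 to 38.1 CPM in wild type. The 6 dendritic cell markers summed to 88.8 to 128 CPM in Nfkb2-/-, against 23.7 to 59.1 CPM in wild type, and among them Zbtb46 rose (86.8 to 118 CPM in Nfkb2-/-, against 16.5 to 42.1 CPM in wild type, edgeR adjusted p = 0.0355). The other 5 summed to 1.99 to 10.0 CPM in Nfkb2-/-, against 2.75 to 34.2 CPM in wild type. The 13 B cell markers, beside Cd200, which B cells carry, summed to 35.7 to 66.1 CPM in Nfkb2-/-, against 97.0 to 335 CPM in wild type. By edgeR 2 of the 13 were called lower, against 0.405% of all genes. Gamma-delta T cell, mast cell and basophil, and red cell markers summed to at most 4.32, 0.489 and 37.9 CPM in Nfkb2-/-, against 4.31, 0.168 and 56.2 CPM in wild type. The part of these cells in the receptor results was not tested.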

How the data were processed

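RNA was counted in 6 libraries. The authors deposited raw counts per gene. FastQC, HISAT2, HTSeq, DESeq2 and GRCm38 are named in the submitters' processing notes, with no versions, and how HTSeq assigned reads is not stated there. The library kit does not mark strand, per the labels. They call the 3 libraries per genotype biological repeats without saying whether each came from another chimera, so p-values measure the spread between these libraries. Every pair of libraries differed by more than counting noise (chi-square of 5.82 to 106 per degree of freedom).

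Symbols, positions and exon lengths came from GENCODE M21 (55480 of 55573 identifiers matched). Counts were filtered with filterByExpr by genotype, scaled by TMM (factors 0.954 to 1.08) and tested with edgeR 4.0.16 in R 4.3.3 (robust quasi-likelihood, genotype only, common biological coefficient of variation 0.228), adjusted over all genes. Members, gene lists and alternatives were chosen with earlier results of these data known. Genes named are the 9 members, the called members of each list or else its 2 smallest p, and the 3 genes nearest in pattern with a mean of at least 5 CPM, leaving out predicted genes and receptor segments; others are marked. The SE of a fold change was its absolute log2 value divided by the square root of edgeR's F statistic, and 95% intervals used t quantiles. Ratios used counts plus 0.5.

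Replicate numbers are shared between genotypes. Libraries 1, 2 and 3 of each genotype deviated from their means together (r = 0.364, 0.267 and 0.111), each over 0.1, and were treated as pairs in the block; Nfkb2-/- replicate 3 also correlated with wild-type replicate 2 (0.251). The alternatives tried were scaling by RLE or upper quartiles, no filter, 1 CPM in 3 libraries, DESeq2 1.42.0, limma-voom (limma 3.58.1), the replicate block, the log2 summed Y-linked or B cell marker level as a covariate, and each library left out in turn. The code was tested on simulated data. Figures used matplotlib 3.10.9.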

Additional observations from a re-analysis of the deposited data

How the results depend on the processing

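Klrg1 stayed above 0 in every alternative run but lost its call in 6 of 15 and Havcr2 gained a call in 6 of 15. The causes were not tested, and 3 libraries per genotype limit the precision of every value. Members called higher numbered 2 with no count filter, by DESeq2, by limma-voom and with the replicate block, 0 with the Y-linked covariate, 3 with the B cell covariate, and 0 to 2 with a library left out; 0 to 1 were lower with a library left out. With the B cell covariate the log2 fold change turned to 0.37 for Cd226, 0.68 for Cd160, -0.06 for Cd200r1 and -0.07 for Cd200, none past the threshold. The Y-linked and B cell levels did not overlap between genotypes, so neither covariate fit can separate genotype from its covariate. Over all genes, 292 were higher and 174 lower with no filter, 399 and 235 under DESeq2, 6 and 1 in the Y-linked covariate fit, 1185 and 1497 with the B cell covariate, and 196 and 93 with the replicate block. Leaving out a library gave 6 to 628 higher and 1 to 606 lower, the highest without wild-type replicate 1. Among regulators, 2 were higher and 1 lower with no filter, 4 and 1 by DESeq2, 1 and 1 under the replicate block, 0 higher with the Y-linked covariate, 6 and 1 with the B cell covariate, and 0 to 4 and 0 to 2 with a library left out. With the B cell covariate 1 ligand was lower and 1 paralog was higher. In the list of other coinhibitory receptors, Entpd1 included, 2 genes were higher and 1 lower in that fit. Leaving out a library gave 0 to 1 ligands lower. It gave 0 to 1 genes higher and 0 to 4 lower in the list of other coinhibitory receptors. In the chromosome 16 stretch, 1 gene was higher by DESeq2, 1 lower with the replicate block, and 2 higher and 5 lower with the B cell covariate, with 0 to 1 in each direction without a library. Among members the replicate block added the call of Havcr2 and changed no other call. The Tigit to Cd96 difference ran from -0.05 to 0.26 without a library. The ratios' directions were otherwise kept, and the longest transcript in place of all exons moved the Nfkb2-/- shares of Tigit, Cd226, Cd200r1 and Cd200, and the wild-type share of Cd200, by more than 1 SD.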
